A study of Mus musculus with 39 samples.

Results

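The germ-cell RNA-binding translational regulators were 8 genes taken by symbol from the gene list of the single-cell data: Dazl, Boll, Ybx2, Ybx3, Ddx25, Pabpc1, Pabpc2 and Rbm44. All 8 were found among its 32285 genes. Their transcripts were counted as unique molecular identifiers (UMIs), each standing for 1 captured RNA molecule, in 3′ droplet single-cell RNA-seq of whole dissociated mouse testis. The control library carried the genotype Kdm6a fl/y; Cre- and the conditional knockout (cKO) library Kdm6a fl/y; Ddx4-Cre+, so both carried the floxed allele of Kdm6a (Utx), an X-linked H3K27 demethylase gene, and Cre was driven by the germ-cell gene Ddx4 in the cKO. There was 1 library per genotype, and the labels used here give no age, number of animals or pooling. The cKIT+ spermatogonia (sorted on the receptor KIT) of the same genotypes supplied ATAC-seq, which maps open chromatin, and CUT&Tag for the repressive mark H3K27me3, with 2 control and 3 cKO libraries each and 1 control IgG library.

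Male germ cells make many mRNAs long before the protein is needed, because transcription stops as spermatid chromatin is compacted. RNA-binding proteins store these mRNAs, silence them or recruit ribosomes to them. DAZL and BOLL belong to the DAZ family, which binds 3′ untranslated regions and promotes translation. YBX2 (MSY2) and YBX3 (MSY4) are Y-box proteins that coat and store germ-cell mRNAs, and DDX25 (GRTH) is a DEAD-box helicase of mRNA export and the chromatoid body. PABPC1 and its testis copy PABPC2 bind the poly(A) tail, and RBM44 is a germ-cell RNA-binding protein of the bridges between germ cells.

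The libraries held 229882646 (control) and 172368722 (cKO) UMIs, of which 132867391 and 99072889 lay in the 11252 and 8520 barcodes with at least 3000 UMIs, here called cells. Cells were placed in 6 germ-cell stages by marker genes: 52 control and 53 cKO undifferentiated spermatogonia, 231 and 158 differentiating spermatogonia, 468 and 177 early spermatocytes (before pachytene), 1706 and 1311 late spermatocytes, 1619 and 1640 round spermatids, and 3800 and 2712 elongating spermatids. Every marker list had its summed level above free RNA in its own stage, and all markers of a stage were detected there, in both libraries. The stages came from a range of scores, and up to 16.9% of a stage's cells lay close to the cut. A share of 25.8% of control and 24.5% of cKO cells met no list's threshold. There were 30 barcode names in both libraries. Free RNA, measured in barcodes under 100 UMIs, was rich in spermatid transcripts: the 12 elongating spermatid markers summed to 48098 (control) and 40159 (cKO) UMIs per 1000000 of free RNA, against 229723 and 250115 in elongating spermatids and 27609 and 19943 in undifferentiated spermatogonia. The level in free RNA, and in Leydig cells (100 cells per library), is therefore given beside the genes' levels. The share of free RNA in a stage's UMIs was not known well: in spermatogonia and early spermatocytes Leydig markers gave 7.75% to 29.4%, on only 2 to 26 UMIs, and elongating spermatid markers gave 43.6% to 74.5%. In differentiating spermatogonia these lists ran in opposite directions between the libraries, 29.4% (control) and 7.75% (cKO) by Leydig markers and 43.6% and 74.5% by elongating spermatid markers. Of the 96 levels of the 8 genes (6 stages, 2 libraries), 47 lay below free RNA, of which 28 were above Leydig cells. In Leydig cells 4 of the 8 genes (Dazl, Ybx2, Ddx25 and Pabpc2) were past 1.5-fold higher in the cKO library, where 27% of all genes with at least 20 UMIs passed in either direction. The free RNA of these 4 genes was lower in the cKO library (Dazl 56.1 and 53.7, Ybx2 734 and 644, Ddx25 329 and 314, Pabpc2 403 and 376 UMIs per 1000000). The share of Leydig cells with a UMI was 20% and 17%, 86% and 75%, 47% and 49%, and 74% and 61%. With every cell thinned to 3000 UMIs it was 7% and 5%, 48% and 47%, 22% and 27%, and 38% and 35%. In Leydig cells late spermatocyte markers summed to 597 and 913 UMIs per 1000000, and elongating spermatid markers to 24802 and 20615. Predicted doublets made up 9% and 13% of them. What set the Leydig levels was not tested. Kdm6a itself had 97 control and 8 cKO UMIs in early spermatocytes, 41 and 3 in differentiating spermatogonia, and 5 and 7 in undifferentiated spermatogonia. Per 1000000 UMIs of the stage these were 36.8 and 7.39, 24.0 and 2.82, and 10.8 and 17.4. The labels do not give the deleted exons, so 3′ UMIs outside them would not report the deletion.

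The stage with the highest level was the same in both libraries for 7 of the 8 genes: early spermatocytes for Dazl and late spermatocytes for 6 others. Levels are UMIs per 1000000 of a stage's summed UMIs (CPM), with 95% exact Poisson intervals where given; these cover counting error only. In whole-testis cells a CPM cannot separate less RNA of a gene per cell from more RNA of other genes.

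**Figure D1:**
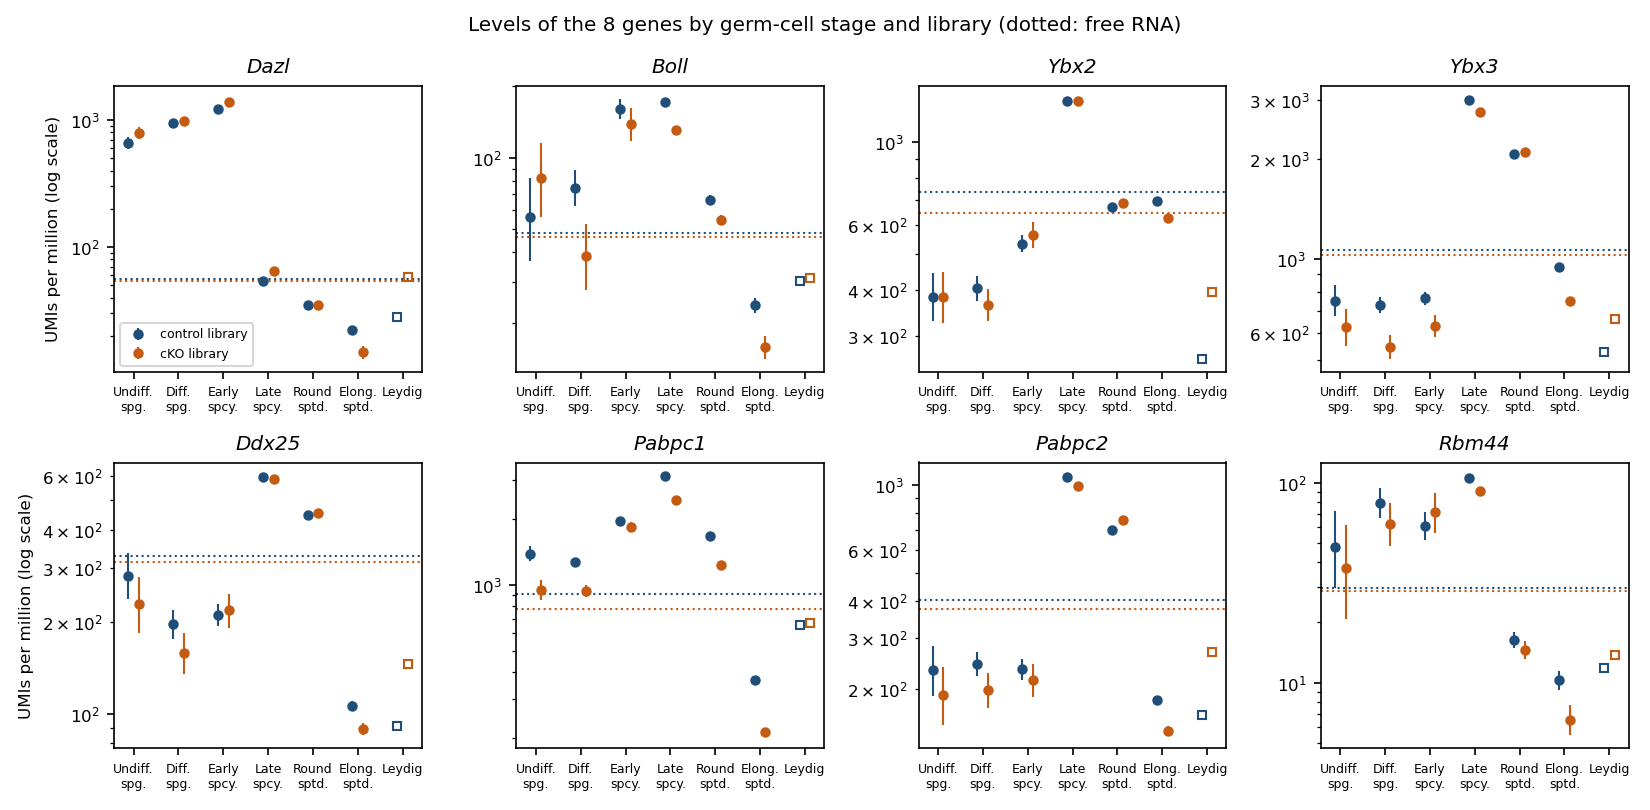
Level of each gene (CPM, log axis) in 6 germ-cell stages and, as open squares, in Leydig cells; filled points are the control (blue) and cKO (orange) libraries with 95% Poisson intervals, and dotted lines are the level in each library's free RNA. Dazl was close to free RNA in late spermatocytes, 6 genes peaked in late spermatocytes in both libraries, and Pabpc1 lay lower in the cKO library in every germ-cell stage.

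Dazl (chr17:50279393-50293620, GRCm38.p6) had its highest levels in the stages before pachytene. Its level was 658 CPM in control and 794 in cKO undifferentiated spermatogonia, 952 and 990.3 in differentiating spermatogonia, and 1226 and 1391 in early spermatocytes. It was 54.4 and 65.0 in late spermatocytes, 22.6-fold lower in control and 21.4-fold lower in cKO. That level was next to free RNA, at 56.1 and 53.7, and to Leydig cells, at 28.0 and 58.4. A cluster named late spermatocytes (cluster 7, described below) held more, 318 CPM in control and 351 in cKO. With every cell thinned to 3000 UMIs, 93.8% of early spermatocytes in each library had a Dazl UMI, against 14.8% (control) and 19.5% (cKO) of late spermatocytes and 7% and 5% of Leydig cells. Before thinning these shares were 96.6% and 95.5%, 48.8% and 48.1%, and 20% and 17%. The median UMIs per cell were 4243.5 and 5033 in early spermatocytes, 22461.5 and 18593 in late spermatocytes, and 8269.5 and 6747.5 in Leydig cells.

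Boll (chr1:55243566-55363789), the DAZ-family gene of meiosis, was highest in early and late spermatocytes, whose intervals overlapped in both libraries. Its level was 161 and 138 CPM in early spermatocytes and 172 and 131 in late spermatocytes, 2.82 to 3.57 times free RNA (48.3 and 46.2); the order of these neighbouring stages differed between the libraries, but was the same in both under 7 of 13 alternative settings. It was 66.6 and 54.7 in round spermatids and 23.9 and 15.9 in elongating spermatids, below free RNA.

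The Y-box genes and Ddx25 had their highest level in late spermatocytes in both libraries. Ybx2 (chr11:69935805-69941604) stood at 1291 and 1296 CPM in late spermatocytes, 668 and 685 in round and 693 and 623 in elongating spermatids; round and elongating spermatids did not keep 1 order across the libraries, and lay at or near free RNA (734 and 644). Ybx3 (chr6:131364858-131388450) stood at 3010.0 and 2758 in late spermatocytes, 2067 and 2103 in round spermatids and 946 and 750.4 in elongating spermatids. Ddx25 (chr9:35541848-35558470) stood at 596 and 587, 448 and 456, then 106 and 89.0. In spermatogonia and early spermatocytes all of these lay below free RNA, which held 1069 and 1031 CPM of Ybx3, and 329 and 314 of Ddx25. In early spermatocytes Ybx2 stood at 532 and 561 CPM, Ybx3 at 762 and 631 and Ddx25 at 211 and 218. Leydig cells had 260.4 and 394 of Ybx2, 525 and 660.2 of Ybx3, and 91.4 and 145 of Ddx25. In the cKO library Ybx2 in both classes of spermatogonia (382 and 364) and Ybx3 in these and in early spermatocytes (626, 546 and 631) were thus below Leydig cells, while in the control library all were above them. How much of these values the cells themselves expressed was not tested.

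Pabpc1 (chr15:36595658-36609581), the general poly(A)-binding protein gene, was detected at 1381 and 946 CPM in undifferentiated spermatogonia, 1271 and 934 in differentiating spermatogonia and 1952 and 1839 in early spermatocytes. It was highest, at 3129 and 2426, in late spermatocytes, and stood at 1661 and 1229 in round and 366 and 212 in elongating spermatids. Pabpc2 (chromosome 18), an intronless copy of it, stood at 1067 and 988 in late spermatocytes, 703 and 756 in round and 184 and 144 in elongating spermatids, with early spermatocytes, at 234 and 214, below free RNA (403 and 376). Reads shared between such close copies can be split or dropped in counting, so these levels are uncertain to that extent. Rbm44 (chr1:91144973-91170799) stood at 47.6 and 37.2 in undifferentiated spermatogonia, on 22 and 15 UMIs, against 29.9 and 28.7 in free RNA, which both intervals reached. It was above free RNA in differentiating spermatogonia, at 79.4 and 62.1, early spermatocytes, at 60.8 and 71.1, and late spermatocytes, at 105 and 90.6. It was 16.3 and 14.6 in round spermatids, 6.46-fold and 6.22-fold lower.

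Clusters made without these 8 genes split the stages further. There were 21 clusters, of which 15 carried a germ-cell stage name by their markers. Dazl was highest, at 1681 CPM over both libraries, in cluster 14, whose leading genes include Dazl itself and the meiotic genes Sycp3, Meiob and Hormad1. It was still 333 in cluster 7, the late-spermatocyte cluster led by Tex101, Sycp1 and Piwil1, and 29.5 in cluster 6, with Pou5f2 among its leading genes, 10.6-fold (control) and 12.2-fold (cKO) lower. Late-spermatocyte clusters thus lay on both sides of free RNA for Dazl. Pabpc2 ran the other way: 339 in cluster 7, below free RNA, against 1125 in cluster 6 and 1218 in cluster 5 (led by Ccna1 and Aurka), with 3.17-fold (control) and 3.50-fold (cKO) between clusters 7 and 6. Pabpc1 had 3227 in cluster 7 and 2971 in cluster 6. Pabpc2 in cluster 7, at 361 and 313 in the 2 libraries, was above Leydig cells (164 and 269).

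The levels of the Y-box genes across spermatid clusters ran in different orders. Ybx3 held 1759 and 1698 CPM in elongating clusters 9 and 1, and 402 and 288 in clusters 2 and 3, led by Tnp2 and Prm1, which is 5.50-fold (control) and 6.23-fold (cKO) between clusters 1 and 3. Clusters 2 and 3 lay below the free RNA of Ybx3 (1069 and 1031) and below Leydig cells (525 and 660.2). Ybx2 was 529 in cluster 9, 583 in cluster 1, 640 in cluster 2, 726 in cluster 3 and 871 in cluster 0. Of these, cluster 0 was above free RNA in both libraries (896 and 831) and cluster 3 in both (779 and 674), while clusters 9, 1 and 2 were below it. Rbm44 was 108 in cluster 6, 32.7 in round cluster 8 and 14.2 in round cluster 4. Cluster levels are descriptions, and no test was made between clusters.

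**Figure D2:**
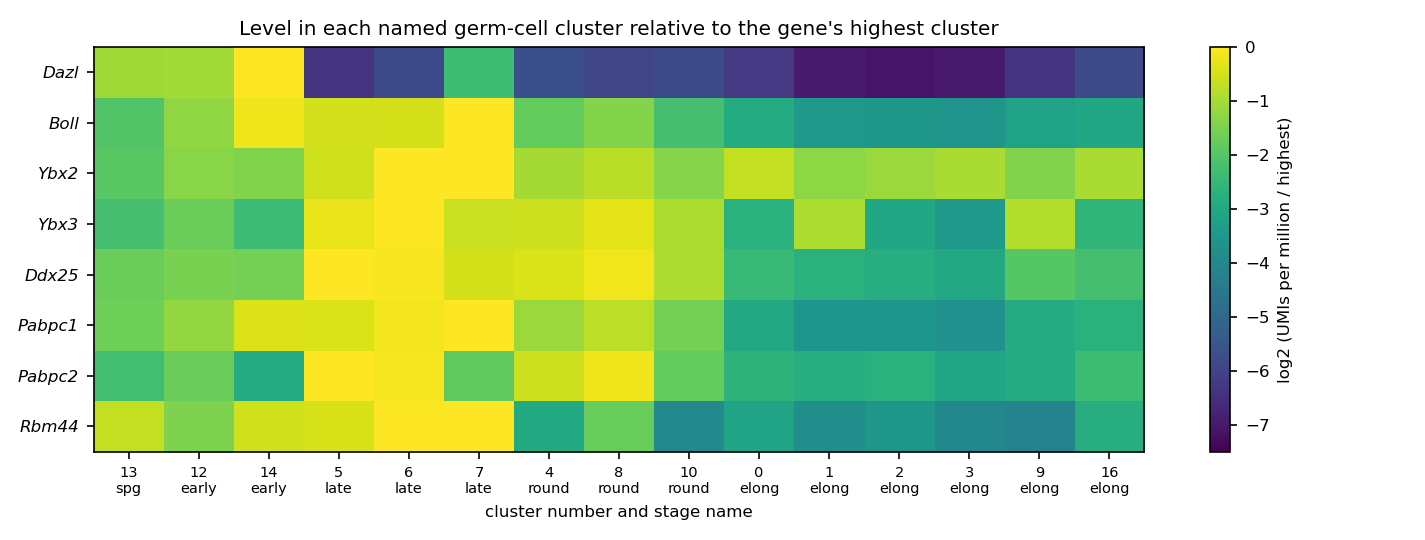
Level of each gene (CPM over both libraries) in the 15 named germ-cell clusters, as log2 of its ratio to the gene's highest cluster; columns are clusters with their stage name, in cluster-number order within a stage and not in time. Dazl is bright in clusters 13, 12 and 14 and still visible in 7, Pabpc2 is dim in 7 and bright in 5 and 6, and Ybx3 is darker in clusters 0, 2 and 3 than Ybx2.

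The genes whose log2 level over 6 stages and 2 libraries (12 points) ran most like each member are given as a description. For Dazl these were Cdc42, H1f0 and Shoc2 (Pearson r of 0.992 each), for Boll Cep95, Nipbl and Sugp2 (0.967, 0.962 and 0.962), and for Ybx2 Nkiras2, 1700097N02Rik and Tesk1 (0.980, 0.976 and 0.971). Ybx3 ran with Ppp3r2, Prdx6b and Stk39 (0.990 to 0.987), Ddx25 with Wdr12, Ccdc130 and Nit1 (0.993 to 0.989), and Pabpc1 with Atxn2l, Cdkal1 and Hadha (0.992 to 0.986). Pabpc2 ran with Eid3, Slc30a3 and Pom121l12 (0.995 to 0.991), and Rbm44 with Smc6, Pcnx and Polg (0.989 to 0.987). Among the members, Ybx3 and Pabpc2 were most alike (0.957) and Dazl and Ybx2 least (-0.66). The number of genes over 0.95 was 746 for Dazl and 14 for Ybx2, of 15412 genes compared, so the 3 named are few of many for Dazl. All points share the libraries, their free RNA and depth.

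Between the genotypes, 2 of the 48 values (8 genes in 6 stages) were past 1.5-fold, both lower in cKO: Boll in differentiating spermatogonia and Pabpc1 in elongating spermatids. The share of all genes with at least 20 UMIs that passed 1.5-fold in the same stage was 16.7% in differentiating spermatogonia and 4.68% in elongating spermatids. It was 22.5% in undifferentiated spermatogonia, 19.8% in early spermatocytes, 1.84% in late spermatocytes and 4.21% in round spermatids, where 0 of 8 passed. With 1 library per genotype there is no replicate check, and a difference may belong to the library. Intervals of a ratio below are 95% exact binomial intervals of the counts alone.

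**Figure D3:**
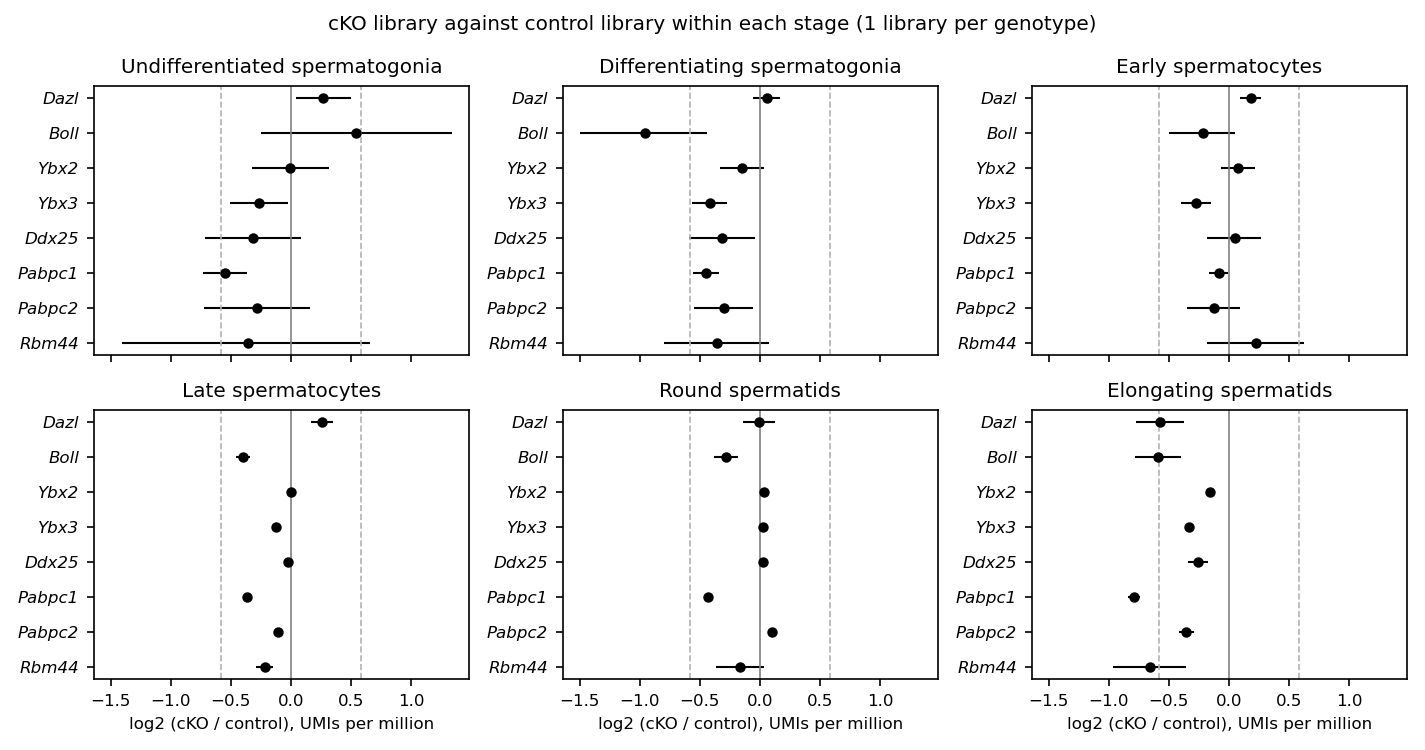
log2 of the cKO over the control level (CPM, no pseudocount) for each gene in each stage, with 95% intervals that cover counting error only; dashed lines mark 1.5-fold. Points left of 0 are lower in the cKO library: Pabpc1 is left of 0 in all 6 panels, and Boll, Ybx3, Pabpc2 and Rbm44 in 5 of 6.

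Pabpc1 in elongating spermatids had the largest ratio after Boll in differentiating spermatogonia, on many more UMIs. In elongating spermatids 11282 control UMIs and 4256 cKO UMIs stood for 366 and 212 CPM, so that the log2 ratio was -0.79 (-0.84 to -0.74). With cells thinned to 3000 UMIs, 68.6% of control and 46.6% of cKO elongating spermatids had a Pabpc1 UMI (92.4% and 74.4% unthinned). The ratio was -0.43 in round spermatids, -0.37 in late spermatocytes, -0.09 in early spermatocytes, -0.44 in differentiating and -0.55 in undifferentiated spermatogonia. The gene was thus lower in the cKO library in 6 of 6 stages and 15 of 15 germ-cell clusters. Being lower in all 6 stages held for 16.9% of all genes with enough UMIs, and in all 15 clusters for 11.8%.

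Pabpc1 was lower in cells gated as Sertoli cells in the cKO library too. It was 1006 in control and 741 in cKO Sertoli cells, 903 and 776 in free RNA, and 654 and 666 in Leydig cells, whose log2 ratio was 0.03 (-0.14 to 0.20). In clusters named by somatic markers its log2 ratio was -0.84 and -0.68 in Sertoli clusters 11 and 18, -0.56 in macrophage cluster 20 and -0.12 in Leydig cluster 19. The values of clusters 11 and 18 were thus of the size of that in elongating spermatids (-0.79). The Sertoli cells by markers, at 1006 and 741, differed less between the libraries. Sertoli cells held more of the elongating spermatid markers (77772 and 67049 UMIs per 1000000) than free RNA did. Over both libraries, Sertoli cluster 11 stood near elongating cluster 0 in Ddx25 (127 and 118 CPM) and Pabpc2 (188 and 193). It held no control Kdm6a UMI. How far these Sertoli classes were mixed with germ cells was not tested, so they are no purely somatic comparison. The Pabpc1 level in elongating spermatids lay below free RNA in both libraries. With free RNA subtracted, at the share that Leydig markers gave, the ratio there was -0.78, and with TMM scaling, which moved all genes of that stage by 0.14 on the log2 scale, it was -0.65. The part of the library itself was not tested.

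Boll in differentiating spermatogonia rested on 128 control and 41 cKO UMIs, 74.8 and 38.6 CPM, with a log2 ratio of -0.95 (-1.50 to -0.44). The cKO level was below free RNA (46.2) and near Leydig cells (31.1). Boll was not past 1.5-fold at a minimum of 5000 UMIs (-0.51) or in the cluster of that name (-0.36). In late spermatocytes, with 6904 and 3512 UMIs, the log2 ratio was -0.40 (-0.46 to -0.34), with levels well above free RNA. Boll was lower in the cKO library in 5 of 6 stages, as Ybx3, Pabpc2 and Rbm44 were, and in 15 of 15 germ-cell clusters. Being lower in all 15 clusters held for 11.8% of all genes with enough UMIs, and the share lower in 5 of 6 stages was not counted. Undifferentiated spermatogonia had 26 and 33 Boll UMIs and 0.54 (-0.24 to 1.34). Boll was lower in cells gated as Sertoli cells in the cKO library too, on few UMIs: they had 56.0 and 28.1 CPM (123 and 51 UMIs). Its log2 ratio was -1.03 and -1.21 in Sertoli clusters 11 and 18 and -0.67 in Leydig cluster 19. Leydig cells by markers had 0.05 (-0.79 to 0.88). As given above for Pabpc1, the Sertoli classes are no purely somatic comparison. The part of the library in the lower Boll level was not tested.

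**Figure D4:**
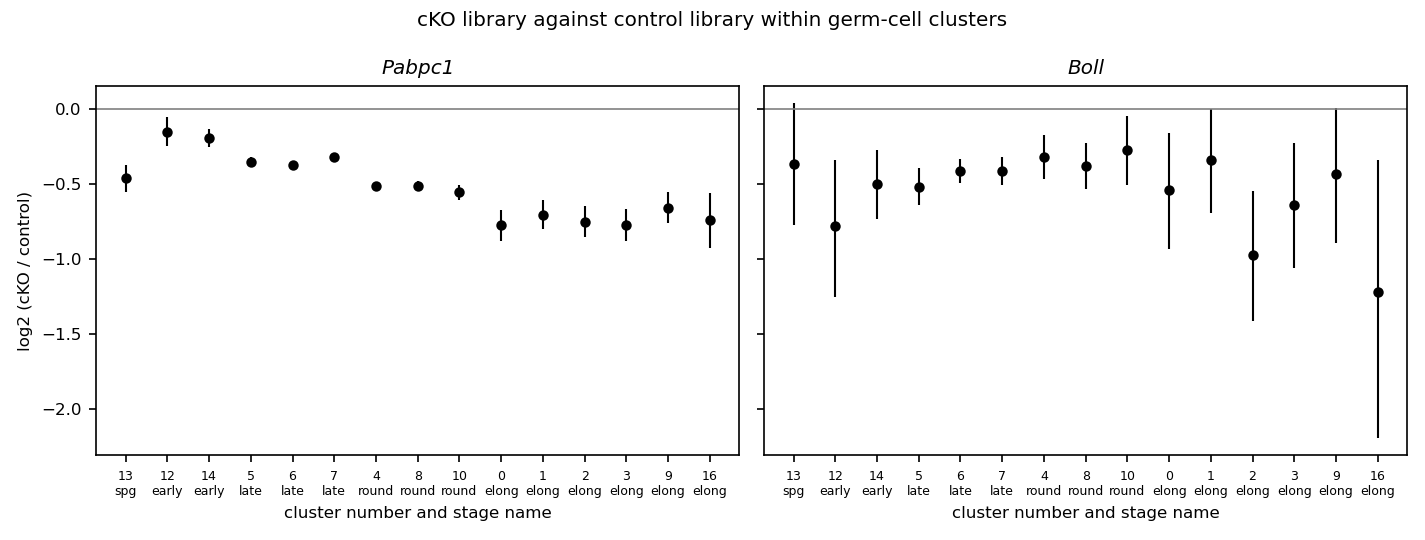
log2 of the cKO over the control level of Pabpc1 and Boll in each of the 15 germ-cell clusters, with 95% intervals that cover counting error only. For Pabpc1 the values run from -0.15 in cluster 12 to -0.77 in cluster 0, and for Boll from -0.27 in cluster 10 to -1.22 in cluster 16, which held 48 control and 14 cKO Boll UMIs.

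The other genes lay within 1.5-fold in the stages where they were abundant. In late spermatocytes the log2 ratio of Ybx2 was 0.01 (-0.01 to 0.02), of Ddx25 -0.02 (-0.05 to 0.01), of Pabpc2 -0.11 (-0.13 to -0.09), of Ybx3 -0.13 (-0.14 to -0.11) and of Rbm44 -0.22 (-0.29 to -0.15). In round spermatids Ybx2, Ybx3, Ddx25 and Pabpc2 lay between 0.02 and 0.10. Dazl was 0.27 (0.04 to 0.50) in undifferentiated spermatogonia, on 304 and 320 UMIs, 0.06 (-0.06 to 0.17) in differentiating spermatogonia and 0.18 (0.09 to 0.27) in early spermatocytes. The early stage did not hold the same cells in both libraries: cluster 12, led by Stra8 and Tex15, gave 63.7% of control and 33.3% of cKO cells there, and cluster 14, where Dazl was highest, 25.6% and 42.9%. In elongating spermatids all 8 genes were lower, with a median log2 ratio of -0.45 against -0.11 for all genes with enough UMIs. A median below 0 means that most of all these genes were lower there, so being lower is not particular to the 8. How many of all genes were lower by any amount was not counted, while 684 of 15188 were past 1.5-fold lower and 27 higher. All 8 levels there lay below free RNA in both libraries. Without the pseudocount of 1 CPM that the 1.5-fold rule adds, Boll (-0.59) and Rbm44 (-0.66) would also pass it there. The share of all genes that would pass without it was not counted, so these are not set against a background. The mix of elongating clusters differed between the libraries: cluster 9 held 609 control and 275 cKO cells, and cluster 3 held 727 and 848. Ybx3, at -0.33 in the stage, ran from -0.46 (cluster 16) to -0.11 (cluster 1) within the elongating clusters. The part of this mix was not tested.

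A list of 50 other translational regulators was set beside them, with the background shares given above. Of those with enough UMIs, 4 of 44 were past 1.5-fold higher and 8 lower in undifferentiated spermatogonia, 1 and 6 of 45 in differentiating spermatogonia, 3 and 4 of 44 in early spermatocytes, 1 and 0 of 47 in late spermatocytes, 0 and 1 of 47 in round spermatids and 0 and 3 of 47 in elongating spermatids. By the ratio with the pseudocount of 1 CPM, the largest were Meioc, a meiotic entry factor (32 and 10 UMIs), Papolb, a testis poly(A) polymerase (81 and 33), and Fxr2, of the fragile X family (43 and 18), all lower in undifferentiated spermatogonia. Dnd1 was higher on 13 and 12 UMIs and Fmr1 lower on 769 and 163 in early spermatocytes, and Stau1 was lower on 149 and 42 in elongating spermatids; without the pseudocount the log2 ratios of Stau1 (-1.21) and Dnd1 (1.17) exceed in size those of Papolb (-1.10) and Fxr2 (-1.06). Fmr1 is a leading gene of cluster 12; within that cluster its level was 376 in control and 258 in cKO. Ybx1, the somatic Y-box gene, had the most UMIs of the list in every stage but elongating spermatids, where Paip2, a repressor of poly(A)-binding protein, did.

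Of 12 mRNAs that these proteins are known to bind or store, 4 (Tnp1, Tnp2, Smcp and Akap4) were past 1.5-fold lower in undifferentiated spermatogonia, 1 (Prm1) higher in differentiating spermatogonia and 2 (Smcp and Akap4) lower in early spermatocytes. Past 1.5-fold in these stages were 22.5%, 16.7% and 19.8% of all genes with enough UMIs. In late spermatocytes it was 1.84%, in round spermatids 4.21% and in elongating spermatids 4.68%. The genes named are spermatid genes, which free RNA also held, and the part of free RNA in these values was not tested. Of the 12, 0 were past 1.5-fold in late spermatocytes and 0 in round spermatids, and 1, the helicase gene Ddx4, was lower in elongating spermatids (46.6 and 28.7 CPM). In round spermatids 5 lay just inside it and lower in the cKO library, Tnp2 (-0.58), Akap4 (-0.56), Prm2 (-0.53), Tnp1 (-0.50) and Prm1 (-0.50). Sycp3, a synaptonemal complex gene and DAZL target, had a log2 ratio of 0.17 in early and -0.04 in late spermatocytes. It is a leading gene of cluster 14, which gave 25.6% of control and 42.9% of cKO early spermatocytes, and the part of that mix was not tested. The spermatid genes of this list (Prm1, Prm2, Tnp1, Tnp2, Smcp, Odf1 and Akap4) also chose the elongating spermatids, and a cell joined the round spermatids only if its score was above that of this list, so their level in either stage is no finding.

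Starts of 5 of these genes could be set against the open chromatin of cKIT+ spermatogonia. RefSeq promoter entries (GRCm38.p6) were found for 5 of 8 genes, with 7 starts; Pabpc1, Pabpc2 and Rbm44 had none. A peak of the authors' ATAC-seq lists lay within 1 kb of a start of Dazl, Boll, Ybx2 and Ybx3 in 5 of 5 libraries, a pattern held by 26.1% of 27025 genes, while 48.4% had a peak in none. Within 5 kb the members' counts were the same, against 29% of genes with a peak in every library and 38.7% in none. Ddx25 had a peak in 4 of 5; the list without it, of cKO replicate 1, was the shortest, at 14635 peaks, against up to 40497. The part of list length was not tested. The bases before 4 starts are shown 5′ to 3′, where a peak overlapped at least part of them in 5 of 5 libraries (Dazl, Boll and Ybx2) or 3 of 5 (Ddx25). The window of Ybx3, overlapped in 2 of 5, is not shown. Second starts are not shown either: that of Boll (chr1:55362728) was overlapped in 5 of 5 too, and that of Ybx2 (chr11:69936328) in 0 of 5. Capitals mark matches, on either strand, to the E-box CACGTG, the short CRE word TGACG (which also lies in the full CRE) and the E2F-type word GGCGGGA.
Dazl, chr17:50293621-50293870, minus strand: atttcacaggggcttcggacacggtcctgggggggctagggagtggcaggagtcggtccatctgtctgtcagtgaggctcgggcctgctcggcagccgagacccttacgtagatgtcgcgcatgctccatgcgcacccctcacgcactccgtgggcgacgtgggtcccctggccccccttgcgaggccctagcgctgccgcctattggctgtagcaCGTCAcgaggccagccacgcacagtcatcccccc
Boll, chr1:55363754-55364003, minus strand: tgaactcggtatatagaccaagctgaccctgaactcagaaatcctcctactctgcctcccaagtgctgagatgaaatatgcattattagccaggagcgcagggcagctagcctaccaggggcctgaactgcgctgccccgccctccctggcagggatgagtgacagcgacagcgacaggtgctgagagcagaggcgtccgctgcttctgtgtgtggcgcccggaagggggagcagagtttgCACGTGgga
Ybx2, chr11:69935649-69935898, plus strand: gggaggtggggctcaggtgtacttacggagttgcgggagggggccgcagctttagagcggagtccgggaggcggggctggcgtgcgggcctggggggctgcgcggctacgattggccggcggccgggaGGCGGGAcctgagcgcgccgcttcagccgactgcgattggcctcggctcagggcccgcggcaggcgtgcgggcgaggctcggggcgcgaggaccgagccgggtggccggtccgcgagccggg
Ddx25, chr9:35558471-35558720, minus strand: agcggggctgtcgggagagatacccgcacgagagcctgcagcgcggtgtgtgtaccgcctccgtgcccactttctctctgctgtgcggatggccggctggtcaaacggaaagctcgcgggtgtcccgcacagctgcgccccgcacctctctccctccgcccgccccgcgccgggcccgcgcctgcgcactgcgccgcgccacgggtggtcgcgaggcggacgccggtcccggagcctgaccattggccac
The E-box of Boll starts 9 bases before the start, the short CRE word of Dazl 34 and the GGCGGGA of Ybx2 122. The Ybx2 peaks ended at chr11:69935738 and 69935765 in the control and at 69935746, 69935800 and 69935733 in the cKO libraries. Its GGCGGGA thus lay past the end of the peak in every list but that of cKO replicate 2. Its start (chr11:69935899) lay past the end in every list. The start used for Boll was chr1:55363753, so its E-box lies inside the gene bounds given above, which end at chr1:55363789. Of 32851 windows of 250 bases, 6.02% hold the E-box, 17.8% the short CRE word and 9.75% GGCGGGA. The full CRE, TGACGTCA, and the NRF1 word were in none of the 7 member windows (1.55% and 0.782% of all windows). The 4 windows shown held 20 CpGs in Dazl, 11 in Boll, 35 in Ybx2 and 34 in Ddx25, against a median of 6. The window of the second Boll start held 33 CpGs and no E-box, short CRE word or GGCGGGA. A match is a description of the letters only.

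By the fold enrichment that the authors gave each peak, the share of the same list with a higher fold than the Dazl peak was 21.0% and 9.72% in the control and 8.40%, 18.7% and 7.43% in the cKO libraries. For Boll, whose transcripts stood at 0.83 to 1.77 times free RNA in spermatogonia, it was 87.4% and 39.8%, then 60.2%, 48.8% and 33.0%. The Boll peak thus ranked lower than the Dazl peak in each of the 5 lists. Ybx2, Ybx3 and Ddx25 lay below free RNA in spermatogonia. The Ybx2 shares were 34.2% and 22.6%, then 29.4%, 34.5% and 25.8%. Those of Ybx3 were 46.6% and 29.8%, then 54.4%, 73.8% and 24.0%. Ddx25 had 54.95% and 35.2%, then 40.3% and 25.1% in cKO replicates 2 and 3. Whether peak rank goes with transcript level was not tested. Ranks in lists of different lengths show no change between genotypes. Pabpc1 and Rbm44, placed by their gene bounds, each had 1 peak in the gene or within 1 kb of it in 5 of 5 libraries, as 21.2% of 49943 genes had a peak in all 5. Pabpc2 had a peak in 2 of 5, where 47.6% of genes had one in any library.

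H3K27me3 regions were found within 1 kb of 0 of the 5 genes' starts in 0 of 5 libraries, and neither were IgG regions; 18.3% of all genes had such a region in any library and 6.06% in all 5. Within 5 kb, Ybx2 had a region in 4 of 5 libraries, from chr11:69937563, downstream of its start, and absent in cKO replicate 1, and Ddx25 in control replicate 2 alone; 23.4% of all genes had one in any library and 8.89% in all 5. Inside the Rbm44 gene a region near chr1:91166913-91169031 was listed in 2 of 2 control libraries and in 1 of 3 cKO libraries (replicate 2, which by its name was not downsampled as the other 4 were). In a gene or within 1 kb of it, 20.3% of the 49943 genes had a region in any library and 1.5% had this pattern of both control and 1 of 3 cKO libraries. The number of regions per list ran from 11118 to 18494, and its part in these counts was not tested.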

How the data were processed

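The single-cell matrices hold the authors' UMI counts per gene for every barcode, made with Cell Ranger per the file headers; Seurat 4.1.0 and the build mm10 come from the submitters' processing notes. The deposited ATAC-seq lists give each peak's fold enrichment (a ratio) and the −log10 of its q, with cutadapt, Bowtie2 and MACS2 named in the submitters' processing notes. The deposited CUT&Tag lists give the summed and highest signal of each region, with SEACR named there. By their names, 4 of the 5 H3K27me3 lists came from downsampled reads.

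Barcodes with at least 3000 UMIs were kept. For each marker list, log counts scaled to a fixed total per cell were standardised and averaged. A cell joined the list with the highest score if that score was at least 0.5, 0.3 above the next, with 3 markers detected. The undifferentiated and differentiating spermatogonia lists were exempt from this margin against each other, so a cell went to the higher of them by any amount. The members, lists and thresholds were chosen with earlier results of these data known; the thresholds were set after member levels had been seen under 3 other assignments, which are among the alternatives, and so were the rules for naming clusters and for comparing top stages. Summed UMIs per stage and library were scaled to 1000000 (CPM). A ratio used a pseudocount of 1 for the 1.5-fold rule and none for printed intervals. No test between genotypes was made, since each had 1 library. Clusters came from scanpy 1.11.5 (Leiden, resolution 1, 2000 variable genes, 30 components, members left out); Scrublet marked 5.5% and 6.51% of cells as doublets, which were kept in the main values. A cluster was named at a mean score of 0.5, 0.25 above the next (with the same exemption for the spermatogonia lists), with under 50% doublets. The ratio, fold call and interval were tested on simulated counts. The named genes were the 8 members, Kdm6a, the 3 genes most like each member (at least 50 UMIs per library, no marker), at most 6 other regulators with the largest ratio past 1.5-fold, the one with most UMIs per stage, and the 12 bound mRNAs. Bulk RNA files, which give transcript IDs without genes, were not used here.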

Additional observations from a re-analysis of the deposited data

How the results depend on the processing

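Under 13 alternatives, 6 of them chosen after seeing the data, the number of values past 1.5-fold, 2 of 48, was 1 at a minimum of 5000 UMIs, 4 with free RNA subtracted (at the lowest share that a marker list gave, on 2 to 26 UMIs in spermatogonia and early spermatocytes), 5 without predicted doublets, 5 of 46 with cells thinned to 3000 UMIs, and 4 under each of 2 stricter gates (score of 1, margin of 0.5, with 3 markers, or with 4, where 47 had enough UMIs). It was 3 at a minimum of 2000 UMIs, 3 of 40 with Leiden clusters, which named no undifferentiated class, and 3 with TMM scaling; it stayed at 2 with a pseudocount of 10, no minimum per gene, at most 20% mitochondrial UMIs with at least 500 genes, and the highest score with no threshold. Pabpc1 in elongating spermatids was past 1.5-fold under all 13 (-0.90 to -0.65), and Boll in differentiating spermatogonia under 11 (-1.21 to -0.36). Neither changed sign. Other values passed under few: in undifferentiated spermatogonia Boll, higher, under 4 of 12 (0.10 to 0.75), Pabpc1, lower, under 2 (-0.66 to -0.23) and Ddx25, lower, under 1 (-0.85 to -0.06). Lower, too, were Rbm44 in elongating spermatids under 3 of 13, Boll there under 2, Dazl there under 1, Boll in early spermatocytes under 2 (-0.66 to -0.14) and Rbm44 in differentiating spermatogonia under 1. The share of all genes past 1.5-fold in the stages with such calls was, with free RNA subtracted, 31.6% in undifferentiated and 32.7% in differentiating spermatogonia and 6.96% in elongating spermatids; with thinned cells 27.04%, 21.2% and 11.1%; without doublets 25.9%, 18.2% and 4.61%. Under the stricter gates it was 24.1% and 35.4% in undifferentiated spermatogonia, 17.3% and 19.97% in differentiating spermatogonia, 20.5% and 20.4% in early spermatocytes and 4.68% in elongating spermatids. At 5000 UMIs it was 3.49%, and with Leiden clusters 3.61%, in elongating spermatids, and at 2000 UMIs 22.0% and with TMM 22.2% in undifferentiated spermatogonia. Of the 48 ratios, 17 changed sign under some alternative, none of them Pabpc1 or Boll. The count of genes with the same top stage in both libraries was 7 or 8 of 8. The count of members with ATAC-seq peaks in all libraries, 4 of 5, was 4 with a window of 5 kb. Gates under 60 cells limit undifferentiated spermatogonia most. No paired analysis was possible because each genotype had 1 single-cell library and the peak comparison rests on no test. The bulk RNA alternatives were not run, as the transcripts were not paired with genes here.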
